A study of Mus musculus with 8 samples.

Results

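The genes Prom1, Sox9, Epcam, Krt7, Krt19, Cd24a, Spp1, Afp, Gpc3 and H19, which mark bile duct cells, liver progenitor cells or the fetal liver, were followed in the livers of Nnmt KO and control mice. They were taken by symbol from a table of 33212 genes, in which all 10 were found. The list was chosen by the level of Prom1, which was seen to be higher in Nnmt KO mice, so the difference of Prom1 is given as a description without a test, and no support is drawn from it. The liver RNA came from 4 Nnmt KO mice (labelled Nnmt LKO, strain C57BL/6) and 4 control mice (labelled WT, strain C57BL/6), with 1 library per mouse. All mice were male and received, for 8 weeks, a diet that lacks methionine and choline (the MCD diet). Their age is not given in the sources used here. Nnmt KO mice were Alb-Cre with both Nnmt alleles floxed, and control mice carried the floxed alleles without Alb-Cre. The albumin promoter drives Cre in hepatocytes, and Nnmt was not measured by cell type. The count columns are headed by genotype alone, and in each genotype the letters a to d name the libraries in column order.

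Cholangiocytes, the epithelial cells of the bile ducts, are few in a healthy liver and carry the keratins 7 and 19, EpCAM and the transcription factor SOX9. In an injured liver, small duct-like cells can multiply around the portal tracts, a change known as a ductular reaction, and these cells can also carry prominin 1 (Prom1, CD133), CD24 and osteopontin (Spp1). Alpha-fetoprotein (Afp), glypican 3 (Gpc3) and the imprinted long non-coding RNA H19 are abundant in the fetal liver, are silenced after birth and can return in regenerating or tumorous hepatocytes. The MCD diet is a model of steatohepatitis in which duct-like cells appear. In a piece of liver, a difference in such a gene can come from the number of cells or from the RNA in each cell, and these cannot be told apart in bulk RNA.

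The promoters of 3 genes are shown because the libraries of the genotypes did not overlap for Prom1 and Gpc3, while Afp, another gene of the fetal liver, did overlap. RefSeq's promoter table for GRCm38.p6 held an entry for 6 of the 10 genes. The stretches are the 250 bases before the start site given there, 5′ to 3′ on the gene's strand, and capitals mark the TATA box (TATAAA), an HNF1 motif (GTTAAT), the GC box (GGGCGG) and the CCAAT box (CCAAT) on either strand. Prom1, on the minus strand at chr5:44101737-44101986, is followed by Gpc3, on the minus strand at chrX:52613975-52614224, and Afp, on the plus strand at chr5:90490464-90490713.
Prom1: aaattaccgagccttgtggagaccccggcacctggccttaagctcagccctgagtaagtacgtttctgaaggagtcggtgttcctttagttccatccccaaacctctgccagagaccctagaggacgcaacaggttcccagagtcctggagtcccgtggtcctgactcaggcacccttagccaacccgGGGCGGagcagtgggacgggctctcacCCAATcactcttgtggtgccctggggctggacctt
Gpc3: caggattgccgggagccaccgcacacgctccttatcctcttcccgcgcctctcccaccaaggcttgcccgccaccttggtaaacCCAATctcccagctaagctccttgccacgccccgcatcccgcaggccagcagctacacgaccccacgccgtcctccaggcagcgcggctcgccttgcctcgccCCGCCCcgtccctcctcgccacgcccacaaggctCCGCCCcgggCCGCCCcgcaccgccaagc
Afp: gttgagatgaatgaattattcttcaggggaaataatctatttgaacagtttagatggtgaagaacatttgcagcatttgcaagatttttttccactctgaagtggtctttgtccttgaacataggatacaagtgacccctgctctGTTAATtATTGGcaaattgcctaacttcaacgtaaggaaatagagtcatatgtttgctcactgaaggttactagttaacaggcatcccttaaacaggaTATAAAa
The Prom1 stretch was the outer of 2 entries for this gene. It held a GC box 62 to 57 bases before RefSeq's start site and a CCAAT box 35 to 31 bases before it. The GENCODE annotation, used below for positions and exons, places the 5′ end of Prom1 further upstream, at chr5:44102032. By that annotation the whole stretch lies within the gene, and both boxes lie after its start. Gpc3 held 3 GC boxes, all read on the opposite strand, and a CCAAT box. Afp, a gene of hepatocytes, held the letters of the TATA box 7 to 2 bases before RefSeq's start site. It also held an HNF1 motif 105 to 100 bases before that site and a CCAAT box on the opposite strand. GENCODE starts Afp further downstream, at chr5:90490737, so these distances hold for RefSeq's site alone. GC made up 59.2% of the Prom1 stretch, 71.6% of that of Gpc3 and 36% of that of Afp, against a median of 52.4% over 32851 promoters. Of these promoters, 12.4% held the TATA box, 6.43% the HNF1 motif, 32.7% the GC box and 33.8% the CCAAT box. The matches describe letters only.

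The libraries held 75020072 to 87934362 counts in all, which puts 3 counts at 0.0418 CPM or less. CPM are counts divided by the library total in units of 1e+06, on the scale of edgeR's TMM normalization. Nnmt lay between 31.8 and 83.0 CPM in Nnmt KO and between 84.9 and 224 CPM in control libraries, and edgeR put the log2 fold change at -1.28 (standard error, SE, 0.33) with adjusted p = 0.123, so that the Nnmt RNA of the tissue was lower in every Nnmt KO library but not lost. Hepatocyte markers summed to between 66727 and 123349 CPM in all libraries, as in liver tissue. Nnmt KO library a stood apart from the rest of its group, with a TMM factor of 1.21 against 0.952 to 0.977, the lowest hepatocyte marker sum of all libraries and the highest sums of its group for stellate cell markers (752 CPM), macrophage markers (1680 CPM), neutrophil markers (15.6 CPM) and markers of dividing cells (29.3 CPM). Among control libraries, library c had the lowest hepatocyte marker sum (83529 CPM) and the highest stellate cell marker sum (482 CPM). Control library d had the highest macrophage marker sum of all libraries (1719 CPM) and the highest neutrophil marker sum of its group (14.4 CPM). The part of these cells in the differences was not tested, and each of the 10 genes is given below with and without Nnmt KO library a and control library c, and H19 also without control library d.

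Prom1, which encodes a cholesterol-binding glycoprotein of membrane protrusions used as a progenitor cell marker, had the highest log2 fold change of the 10 genes with all 8 libraries, although Gpc3 was higher without control library b (2.37 against 1.78) and H19 without control library d (2.61 against 2.02). It was at 17.1, 7.19, 12.9 and 11.3 CPM in Nnmt KO libraries a to d and at 3.26, 1.85, 3.85 and 3.57 CPM in control libraries a to d. The lowest Nnmt KO library was thus above the highest control library. The means were 12.1 ± 4.09 CPM in Nnmt KO and 3.13 ± 0.888 CPM in control mice (SD, n = 4 each), and the log2 fold change was 1.95, with a standard error (SE) of 0.28. It was 1.74 without Nnmt KO library a and 2.06 without control library c. Prom1 (ENSMUSG00000029086) lies on the minus strand at chr5:43993620-44102032 (GRCm38, GENCODE). It shares 424 exon bases with Gm16401, a gene on the opposite strand with at most 10 counts in any library. As the strand setting of the counting is not given, reads from that stretch cannot be assigned to 1 of the genes.

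**Figure D1:**
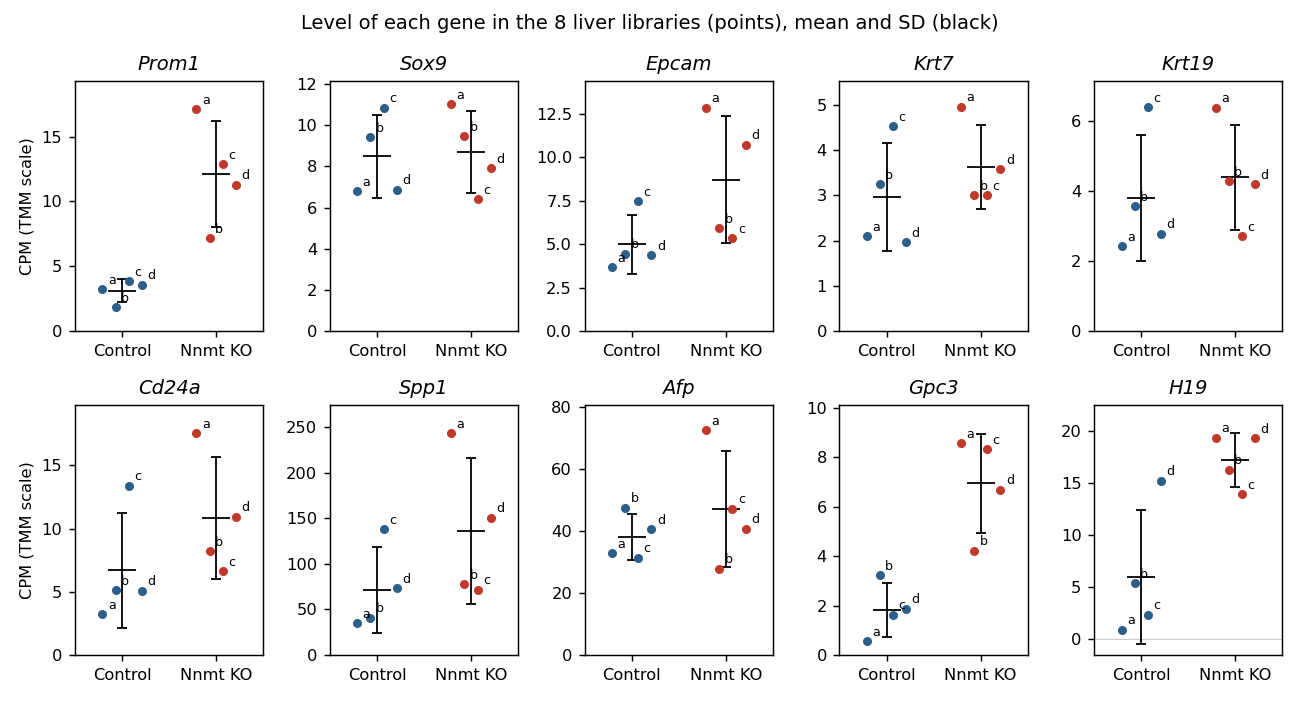
Level of the 10 genes in each library (vertical axes, CPM on the TMM scale, each panel with its own linear axis), with control libraries in blue, Nnmt KO libraries in red, letters for the libraries and black bars for the mean and SD of 4 mice. For Prom1 and Gpc3 every red point is above every blue point, and Nnmt KO library a is the highest red point in all 10 panels.

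Of the other 9 genes, none passed an adjusted p of 0.05 over all 15291 tested genes in edgeR's quasi-likelihood test, in which 0.183% of all genes were called higher in Nnmt KO mice. By DESeq2's test 1 of the 9 passed, namely Gpc3, against 1.42% of all genes called higher. At an unadjusted p under 0.05, edgeR gave 3 of the 9 as higher (Gpc3, Epcam and H19) and none as lower, against 5.45% of all genes higher. DESeq2 gave 2 of the 9 as higher at that limit, against 1017 of all 15291 genes. With an at least 2-fold change and p under 0.05 before adjustment, 2 of the other 9 were higher by edgeR, namely Gpc3 and H19, against 1.26% of all genes. The libraries of the genotypes did not overlap for 2 of the 10, Prom1 and Gpc3, where 3.34% of all genes had every Nnmt KO library above every control library. At an unadjusted p, 7.13% of all genes were lower, 4.81% had every Nnmt KO library below every control library, and 0.32% were called in either direction after adjustment. Because the list was picked in this same contrast, these counts are descriptions and nothing is read from them. All 10 log2 fold changes were above 0, with a median of 0.75 against 0.02 over all tested genes. Without Nnmt KO library a, 8 of the 10 were above 0 and the median was 0.42, and without control library c all 10 were above 0 and the median was 1.17.

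Gpc3, a heparan sulfate proteoglycan anchored in the cell membrane that restrains growth in the embryo, was at 8.57, 4.21, 8.34 and 6.70 CPM in Nnmt KO libraries a to d. In control libraries a to d it was at 0.555, 3.24, 1.64 and 1.88 CPM. All Nnmt KO libraries were above all control libraries, although Nnmt KO library b and control library b came close. The log2 fold change was 1.93 (SE 0.42), with an adjusted p of 0.0877 by edgeR and of 0.000395 by DESeq2. It was 1.81 without Nnmt KO library a and 1.88 without control library c, and across all 12 alternative analyses the adjusted p ran from 0.000395 to 0.208. Gpc3 (ENSMUSG00000055653) lies on the minus strand of the X chromosome, at chrX:52272426-52613950.

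H19 (ENSMUSG00000000031), an imprinted RNA transcribed from the maternal chromosome, was at 19.4, 16.3, 13.9 and 19.3 CPM in Nnmt KO libraries a to d. In control libraries a to d it was at 0.832, 5.33, 2.29 and 15.2 CPM. The Nnmt KO libraries lay within 1.39-fold of each other, while the control libraries spread over 18.3-fold, with control library d above Nnmt KO library c. The log2 fold change was 1.54 ± 0.63 (SE), with adjusted p = 0.339 by edgeR and 0.346 by DESeq2. Control library d moved this value most, as the log2 fold change without it was 2.61 (adjusted p = 0.086 by edgeR), while it was 1.48 without Nnmt KO library a and 1.27 without control library c. H19 also holds Mir675 within its exons, and reads from that stretch can count for either gene, although Mir675 had at most 1 count in any library.

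Afp, the major serum protein of the fetus made by fetal hepatocytes and the yolk sac, was at 72.5, 27.8, 47.2 and 40.8 CPM in Nnmt KO libraries a to d. It was at 32.8, 47.6, 31.4 and 40.6 CPM in control libraries a to d. The groups overlapped, and only Nnmt KO library a was above all control libraries. The log2 fold change of 0.31 (SE 0.25, adjusted p = 0.649 by edgeR) became 0.02 without Nnmt KO library a and 0.22 without control library c. Although Afp, Gpc3 and H19 are all genes of the fetal liver, only Gpc3 had libraries that did not overlap, and the differences between these fold changes were not tested.

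Epcam, a cell adhesion molecule of epithelial cells, was at 12.9, 5.94, 5.34 and 10.7 CPM in Nnmt KO libraries a to d and at 3.69, 4.45, 7.48 and 4.37 CPM in control libraries a to d. Nnmt KO libraries a and d were above all control libraries, whereas b and c were below control library c. The log2 fold change was 0.80 (SE 0.31), with adjusted p = 0.306 by edgeR and 0.142 by DESeq2. It was 0.55 without Nnmt KO library a and 1.06 without control library c.

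Cd24a, a small glycoprotein anchored in the membrane of progenitor cells, B cells and neutrophils, was at 17.6, 8.21, 6.60 and 10.95 CPM in Nnmt KO and at 3.22, 5.10, 13.4 and 5.08 CPM in control libraries a to d. Its highest Nnmt KO library was a and its highest control library was c, and the log2 fold change of 0.69 (SE 0.42, adjusted p = 0.527 by edgeR) went to 0.36 without the former and to 1.28 without the latter. Spp1, a secreted phosphoprotein made by duct cells and also by macrophages and stellate cells, had the same highest library in each genotype. It was at 243, 77.9, 71.4 and 150 CPM in Nnmt KO libraries a to d and at 34.8, 40.8, 138 and 73.3 CPM in control libraries a to d. The log2 fold change of Spp1 was 0.92 (SE 0.47, adjusted p = 0.444 by edgeR), 0.48 without Nnmt KO library a and 1.45 without control library c. For both genes, therefore, 1 library of each genotype moved the value by over 1.5 times in opposite directions.

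The keratins and SOX9 are the markers closest to the duct cell itself. Krt7, a keratin of simple ducts, was at 4.96, 2.998, 2.997 and 3.57 CPM in Nnmt KO and at 2.10, 3.25, 4.53 and 1.96 CPM in control libraries a to d. Krt19, its partner in duct cells, was at 6.39, 4.29, 2.72 and 4.199 CPM in Nnmt KO and at 2.42, 3.58, 6.41 and 2.79 CPM in control libraries a to d, so that no Nnmt KO library was above control library c. Sox9, a transcription factor of duct and progenitor cells, was at 11.02, 9.48, 6.40 and 7.91 CPM in Nnmt KO and at 6.79, 9.43, 10.9 and 6.87 CPM in control libraries a to d. The groups overlapped for each of these genes. Their log2 fold changes were 0.30 for Krt7 (SE 0.29, adjusted p = 0.71 by edgeR), 0.21 for Krt19 (SE 0.33, adjusted p = 0.83 by edgeR) and 0.04 for Sox9 (SE 0.21, adjusted p = 0.956 by edgeR). Without Nnmt KO library a they were 0.11, -0.03 and -0.10, and without control library c they were 0.58, 0.59 and 0.18. These standard errors leave room for a moderate difference in either direction.

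**Figure D2:**
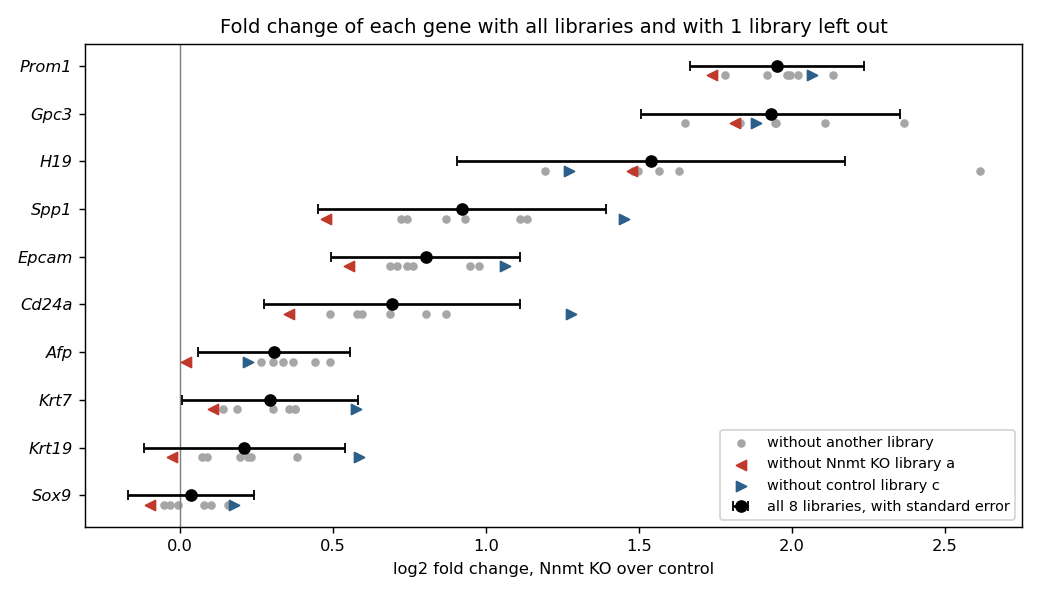
Log2 fold change of each gene, Nnmt KO over control (horizontal axis), with all 8 libraries (black, with the standard error from edgeR), without Nnmt KO library a (red triangles), without control library c (blue triangles) and without each other library (grey). Prom1 and Gpc3 stay above 1.6 in every fit, H19 moves to 2.61 without control library d, and Sox9, Krt19 and Afp lie near 0 without Nnmt KO library a.

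Nnmt KO library a was the highest of its genotype for all 10 genes, which was so for 31.7% of all tested genes. Control library c was the highest of its genotype for 7 of the 10, all but Afp, Gpc3 and H19, against 27% of all tested genes. The lowest control library was a for 7 of the 10, and the lowest Nnmt KO library was c for 7 and b for 3. Among stellate cell markers, Nnmt KO library a was highest for 8 of 8 genes and control library c for 7 of 8. The 7 genes of duct and progenitor cells thus shared the highest library of each genotype, whereas Afp, Gpc3 and H19 were not highest in control library c. As these genes share their libraries and the depth of each library, this order is a description of 8 livers.

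To set Prom1 beside the duct cell genes within each library, the mean log2 CPM of Krt7, Krt19 and Epcam was subtracted from that of Prom1 (prior count 2). The result was between 0.76 and 1.86 in Nnmt KO libraries and between -1.002 and 0.31 in control libraries, and the groups did not overlap. The group means of this quantity were 1.22 ± 0.47 and -0.26 ± 0.66 (SD, n = 4 each), and they differed by 1.48. For Gpc3 the same quantity ran from -0.01 to 1.24 in Nnmt KO and from -2.21 to -0.20 in control libraries. For Cd24a, Spp1, Sox9, Afp and H19 the groups overlapped on this scale, and Sox9 was on average 0.41 lower relative to these genes in Nnmt KO mice. The mean log2 CPM of Krt7, Krt19 and Epcam was itself 0.45 higher in Nnmt KO mice (2.32 ± 0.46 against 1.87 ± 0.53, SD), with overlap. The log2 fold change of Sox9 alone was 0.04, so its lower value here reflects the shift of the reference genes. The share of all genes without overlap on this scale was not determined. No test is given for these differences, since Prom1 chose the list.

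**Figure D3:**
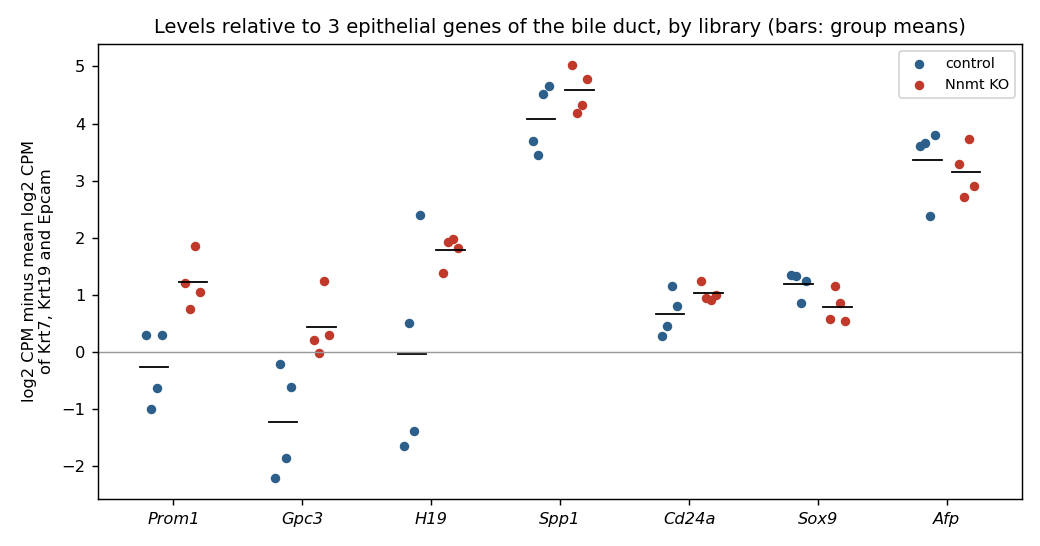
Log2 CPM of each gene minus the mean log2 CPM of Krt7, Krt19 and Epcam in the same library (vertical axis), with control libraries in blue, Nnmt KO libraries in red and black bars for the group means. Prom1 and Gpc3 are higher relative to these genes in all 4 Nnmt KO libraries, while Spp1, Cd24a, Sox9 and Afp overlap.

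Levels were set beside each other per kilobase of merged exons, as RPKM on the TMM scale. Merging takes in the exons of all annotated transcripts of a gene, 7175 bases for Prom1 and 7049 for Krt7. Where the RNA made is shorter than this, the RPKM is too low, so the order of the genes depends on these lengths. In control mice, Spp1 was highest with a mean of 43.5 RPKM, followed by Afp at 11.3 RPKM, without overlap between these or with the next gene. Cd24a, H19, Epcam, Sox9 and Krt19 followed at means of 2.60, 2.41, 2.28, 2.05 and 2.05 RPKM, and each overlapped its neighbour in this order. Gpc3 at 0.679, Prom1 at 0.436 and Krt7 at 0.42 RPKM came last and overlapped each other in that order. Prom1 and Krt7 were thus close in control mice by this measure, which cannot rank their transcripts if these differ in length. In Nnmt KO mice, Spp1 at 82.4 and Afp at 14 RPKM were again highest, and H19 followed at 6.999 RPKM. By the same measure Prom1, at 1.69 RPKM, was above Krt7, at 0.515 RPKM, without overlap, and its libraries overlapped those of Sox9, at 2.10 RPKM.

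Of a further list of 25 cholangiocyte genes, 18 had a log2 fold change above 0 and the median was 0.56, against 0.02 over all tested genes. None passed an adjusted p of 0.05 by edgeR (0.183% of all genes were called higher and 0.137% lower), while 7 were higher and 4 lower at an unadjusted p under 0.05 (5.45% and 7.13% of all genes). DESeq2 called 2 higher and 2 lower after adjustment (1.42% and 1.94% of all genes). Among those higher were Tspan8, a tetraspanin of epithelial cells, at 4.89 ± 2.40 CPM in Nnmt KO livers against 1.94 ± 0.858 CPM (log2 fold change 1.33, DESeq2 adjusted p = 0.0228), and Ehf, an epithelial transcription factor, at 3.17 ± 1.62 against 1.27 ± 0.504 CPM (log2 fold change 1.32, DESeq2 adjusted p = 0.0339). The membrane mucin Muc1 had a log2 fold change of 1.46 (edgeR adjusted p = 0.238), with 7.77 CPM in Nnmt KO library a against 1.76 to 2.30 CPM in the other Nnmt KO libraries, and 0.72 as its log2 fold change without library a. In the other direction, Krt23, a keratin that injured hepatocytes can also make, went from 21.5 ± 9.75 CPM in control mice to 9.53 ± 3.30 CPM (log2 fold change -1.17, DESeq2 adjusted p = 0.0127). Krt18 and Krt8, which hepatocytes and duct cells share, had log2 fold changes of -0.65 (DESeq2 adjusted p = 0.0352) and -0.59 (DESeq2 adjusted p = 0.0839). Without Nnmt KO library a, 3 of the 25 were higher and 6 lower at an unadjusted p under 0.05 by edgeR, and the list's median was 0.27. Over all 15477 genes tested in that fit, 904 were higher and 1148 lower. Without control library c, 13 of the 25 were higher and 4 lower, against 1086 and 1108 of 15509 genes.

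A list of 20 signals and receptors linked to ductular reactions covered the Notch, Hippo, TWEAK and HGF pathways among others. Of the 19 tested, none passed an adjusted p of 0.05 by edgeR, and DESeq2 called 1 lower (Met, against 1.94% of all genes). At an unadjusted p under 0.05, edgeR gave 1 as lower and none as higher, against 7.13% and 5.45% of all genes. DESeq2 gave 1 in each direction, against 1161 lower and 1017 higher of all 15291 genes. The median log2 fold change was -0.05, with 13 genes below 0. The lower gene was Met, the receptor of HGF, with 41.3 ± 2.61 CPM in control mice against 32.7 ± 0.948 CPM (log2 fold change -0.33, adjusted p = 0.141 by edgeR and 0.0165 by DESeq2). Its ligand gene Hgf had a log2 fold change of 0.72 (adjusted p = 0.42 by edgeR). It was 0.49 without Nnmt KO library a and 1.22 without control library d. Yap1, the effector of the Hippo pathway, was at -0.13 (adjusted p = 0.569 by edgeR), and Cyr61, its target, was at -0.49 (adjusted p = 0.455 by edgeR), and at -0.28 without Nnmt KO library d.

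Of 20 fetal and oncofetal genes listed outside the 10, 14 were tested, and their median log2 fold change was 0.42 against 0.02 over all tested genes. At an adjusted p of 0.05, edgeR called 1 higher (Igf2, against 0.183% of all genes) and 1 lower (Gpc1, against 0.137%). DESeq2 called 3 higher (Igf2, Dlk1 and Meg3, against 1.42%) and 1 lower (Gpc1, against 1.94%). Igf2, the fetal growth factor beside H19, rose from 1.06, 0.528, 0.783 and 0.833 CPM in control libraries a to d to 8.75, 5.66, 6.15 and 9.47 CPM in Nnmt KO libraries a to d. Its log2 fold change was 3.22 (SE 0.26, adjusted p = 0.000603 by edgeR), and its adjusted p stayed under 0.05 in all 12 alternative analyses. Gpc1, a glypican as Gpc3 is, fell from 58.4 ± 7.47 CPM in control to 35.4 ± 2.30 CPM in Nnmt KO mice (log2 fold change -0.72, adjusted p = 0.042 by edgeR). That call was kept in 3 of 12 alternative analyses, with adjusted p from 1.3e-05 to 0.173. Tff3, a trefoil peptide of mucous cells, had a log2 fold change of 1.24 (adjusted p = 0.268 by edgeR and 0.114 by DESeq2), with 15 to 57 counts in control libraries. Its libraries did not overlap, and 3.34% of all genes had every Nnmt KO library above every control library. Lin28b, Sall4, Trim71, Hmga2, Igf2bp1 and Igf2bp3, classic oncofetal genes, had too few counts to be tested.

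H19 and Igf2 belong to the imprinted genes, which are expressed from 1 parental copy. Of 20 imprinted genes listed beside H19, 19 were tested, 14 had a log2 fold change above 0, and 6 were higher and none lower at an unadjusted p under 0.05, against 5.45% and 7.13% of all genes. This list shares Igf2, Dlk1, Meg3, Mest, Peg3, Plagl1 and Cdkn1c with the fetal and oncofetal list above, so the counts of these lists are not separate results. After adjustment, edgeR called Igf2 alone (0.183% of all genes were called higher) and DESeq2 called 4, all higher (1.42%). Dlk1, a membrane protein of fetal hepatoblasts, was at 0.884 to 1.77 CPM in Nnmt KO libraries and at 0 to 0.211 CPM in control libraries, without overlap (log2 fold change 3.26, adjusted p = 0.0725 by edgeR and 3.61e-05 by DESeq2). Of all genes, 3.34% had every Nnmt KO library above every control library. The non-coding RNAs of the Dlk1 cluster had log2 fold changes of 1.42 for Meg3 (adjusted p = 0.1 by edgeR), 1.59 for Mirg (adjusted p = 0.126 by edgeR) and 1.30 for Rian (adjusted p = 0.21 by edgeR). Control library d, which was high for H19, was also the highest control library for Meg3 (6.66 CPM) and Rian (14.5 CPM), but not for Igf2 (0.833 CPM). Without control library d, 3 imprinted genes passed an adjusted p of 0.05 by edgeR, against 1 with all libraries. Over all tested genes, edgeR called 28 higher at that limit with all libraries, and 5 to 72 with 1 library left out in turn.

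**Figure D4:**
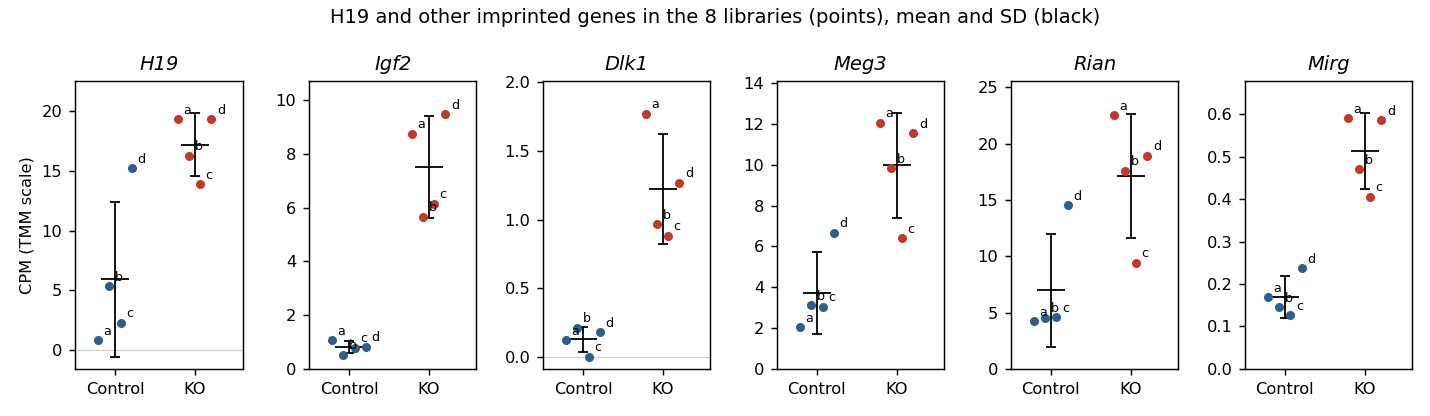
Level of H19 and 5 other imprinted genes in each library (vertical axes, CPM on the TMM scale), with control libraries in blue, Nnmt KO libraries in red, letters for the libraries and black bars for the mean and SD of 4 mice. Igf2, Dlk1 and Mirg do not overlap between genotypes, and control library d is the highest control for H19, Meg3, Rian and Mirg.

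The log2 fold changes of the genes around H19 lay on both sides of 0. H19 is at chr7:142575529-142578143, minus strand, and Igf2 is its neighbour at chr7:142650766-142666816. Within 1 Mb, 23 other genes were tested, of which 7 had a log2 fold change above 0 and 16 below 0, with a median of -0.33. Of those above 0, only Igf2 had an unadjusted p under 0.05 by edgeR, where 5.45% of all genes were higher. Tssc4, Mrpl23, Cars, Ap2a2, Mob2, Tollip and Cd81 were lower at that limit, against 7.13% of all genes. Beyond 120 Mb the 271 tested genes of chromosome 7 had a median of -0.30, and all 1154 tested genes of the chromosome one of -0.14. Tssc4 fell, with a log2 fold change of -0.76 (SE 0.09, adjusted p = 0.0122 by edgeR), and Mrpl23, a mitochondrial ribosomal protein gene near H19, was at -0.62 (adjusted p = 0.0725 by edgeR). The imprinted genes Cdkn1c and Phlda2 were at -0.17 (adjusted p = 0.827 by edgeR) and -1.06 (adjusted p = 0.654 by edgeR), and Kcnq1 was at 0.46 (adjusted p = 0.524 by edgeR).

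**Figure D5:**
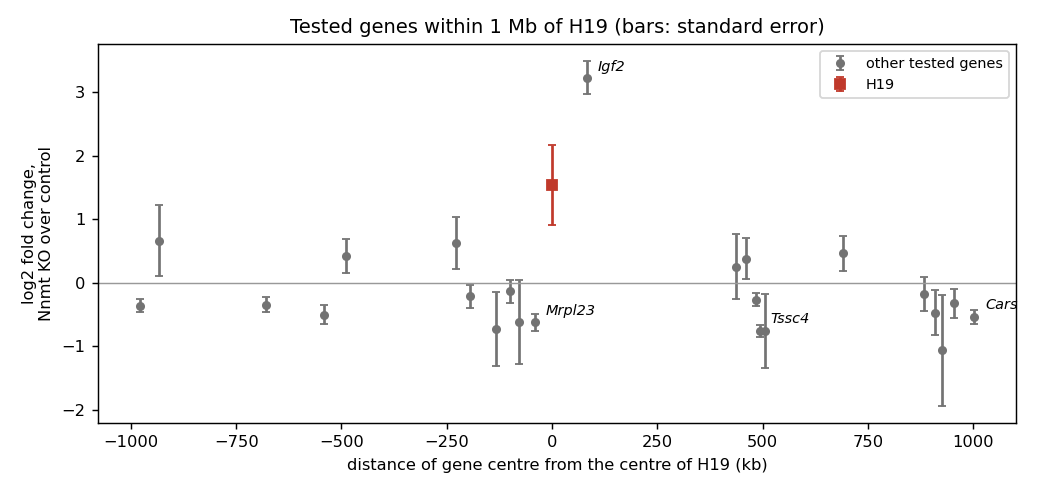
Log2 fold change, Nnmt KO over control (vertical axis, bars for the standard error from edgeR), of the tested genes within 1 Mb of H19, by distance of the gene's centre from that of H19 in kilobases (horizontal axis). H19 (red square, 1.54) and Igf2 (3.22) are the highest points, and 16 of the other 23 genes lie below 0.

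Among 20 genes, all tested, that regulate Afp, H19 and Gpc3 or hold hepatocyte identity, none passed an adjusted p of 0.05 by edgeR, whereas 2 were higher and 4 lower with p under 0.05 before adjustment, against 5.45% and 7.13% of all genes. DESeq2 called 1 higher (Prox1) and 1 lower (Cebpa) after adjustment, against 1.42% and 1.94%. Zhx2, a repressor that silences Afp, H19 and Gpc3 in the mouse liver after birth, was at 11.2 to 12.6 CPM in Nnmt KO and 10.8 to 11.9 CPM in control libraries, with a log2 fold change of 0.04 (SE 0.11, adjusted p = 0.897 by edgeR). Zbtb20, another repressor of Afp, was at 36.4 to 47.9 CPM in Nnmt KO and 23.9 to 37.7 CPM in control libraries, with overlap (log2 fold change 0.48, adjusted p = 0.216 by edgeR). Cebpa, a factor of mature hepatocytes, averaged 173 ± 17 CPM in Nnmt KO livers and 268 ± 40.1 CPM in control livers, without overlap (log2 fold change -0.63, adjusted p = 0.0778 by edgeR and 0.00135 by DESeq2). Prox1 was at 0.49 (adjusted p = 0.12 by edgeR and 0.015 by DESeq2). Hhex and Foxa2 were at -0.49 and -0.52 (adjusted p = 0.162 and 0.195 by edgeR), and Trp53 was at -0.38 (adjusted p = 0.218 by edgeR). Each of these genes was without overlap between the groups. Of all genes, 3.34% had every Nnmt KO library above every control library, and 4.81% had every one below.

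The 5 genes whose pattern over the 8 libraries was most like that of Prom1, by the mean absolute difference of standardised log2 CPM, were Nrxn2 (0.15), Lrp11 (0.17), Tbc1d10c (0.17), Phf21b (0.19) and Cd8a (0.20). None of them is a duct cell marker of the lists used here. Few of the 15290 genes are such markers, so 5 genes would seldom include one, and nothing is read from this. The measure also takes in the difference between the genotypes, by which Prom1 was picked, so it partly restates the fold changes. Of the other 9 genes, Gpc3 came nearest to Prom1 at 0.40, as number 128 of 15290 genes, then Spp1 at 0.57 and Epcam at 0.58. Sox9 was the least alike, at 1.001. Cd8a encodes the co-receptor of cytotoxic T cells, and the summed level of 6 T and B cell markers was between 3.49 and 4.53 CPM in Nnmt KO and between 2.83 and 3.13 CPM in control libraries. Its part in the difference of Prom1 was not tested.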

How the data were processed

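The deposited table of the authors holds raw counts, all whole numbers, for 33212 genes; 12414 of these are at 0 throughout. Their methods name HISAT2 for alignment and quantification, and the submitters' processing notes name HISAT2, StringTie and mm10. The annotation and the strand setting are not given in the sources used here. StringTie estimates counts from coverage, so that whole numbers may not be single reads and counting limits are approximate. Totals ran from 75020072 to 87934362 counts. All 8 columns were used, matched to genotypes by their names. The labels name the control genotype WT, and the sex, diet and floxed alleles come from the study's methods. Neither gives litters or batches, and the library kits named by the labels and the methods differ.

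Genes were kept by filterByExpr (minimum count 10), which left 15291 with all 10 members. TMM normalization and the quasi-likelihood test used edgeR 4.0.16 in R 4.3.3, with Benjamini-Hochberg adjustment over all tested genes. DESeq2 1.42.0, which the study used, was an alternative, with DESeq2's size factors, library size only, no filter, and each library left out in turn. Standard errors follow from the F statistic. The test was tried on simulated data first. Positions and exon lengths came from GENCODE M21 (GRCm38), and promoters from RefSeq. No pair of libraries of a genotype was a copy (chi-square per degree of freedom at least 42.2).

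The members and lists (duct cell genes, ductular signals, fetal, imprinted and regulator genes, cell type markers) were chosen with earlier results of these data known. A symbol shared by 2 gene IDs (Zbtb20) was matched to the ID that GENCODE gives it. Named from each list were the genes past the adjusted limit and those of smallest p, at most 6, and for Prom1 the 5 most alike genes. Of the 23 other tested genes within 1 Mb of H19, only part were named. These, and any gene named outside the rules above, were chosen after their values were seen.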

Additional observations from a re-analysis of the deposited data

How the results depend on the processing

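No paired analysis was possible because the columns of the count table carry no mouse number. The log2 fold changes of Prom1, Gpc3, H19, Epcam, Spp1, Cd24a, Krt7 and Afp kept their direction in all 12 alternatives each. With 1 library left out in turn, Sox9 ran from -0.10 to 0.18 and was below 0 without Nnmt KO library a (-0.10) or b (-0.01) and without control library a (-0.03) or d (-0.05), and Krt19 ran from -0.03 to 0.59, at -0.026 without Nnmt KO library a. Gpc3 passed the adjusted limit with DESeq2 alone, at 1.94. The count of the other 9 members higher at an unadjusted p under 0.05 by edgeR was 3 with all libraries, where 5.45% of all genes were higher. With 1 library left out, this count ran from 1 to 5, lowest without Nnmt KO library d or control library b, and highest without Nnmt KO library b. At an adjusted p it was 1 with DESeq2 and 0 in all other settings.

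Over all genes, 28 were called higher and 21 lower at an adjusted p of 0.05. These counts were 18 and 12 with DESeq2's size factors, 217 and 296 with DESeq2's test, 5 and 3 without a filter on low counts, and 3 lower with library size only. With 1 library left out they ran from 5 to 72 and from 0 to 77, both highest without Nnmt KO library a. At an unadjusted p and a 2-fold change, 192 higher and 74 lower genes became 383 and 160 without a filter, and ran from 177 to 298 and from 67 to 133 with 1 library left out. DESeq2's test called 4 cholangiocyte genes, 1 ductular signal gene, 4 fetal genes, 4 imprinted genes and 2 regulators. Igf2, Dlk1 and Meg3 are counted among both the fetal and the imprinted genes. The 2 fetal genes called became 1 with library size only and without a filter, and 1 to 2 with 1 library left out, and the 1 imprinted gene became 1 to 3. The causes were not tested.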

Other observations

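Stellate cell and fibroblast markers were all 8 above 0 in log2 fold change, with a median of 0.30. At an unadjusted p under 0.05 by edgeR, 2 of them, Dcn and Lrat, were higher, against 5.45% of all genes. None of these markers passed an adjusted p of 0.05. Their summed level was between 352 and 752 CPM in Nnmt KO and between 282 and 482 CPM in control libraries. Macrophage markers had a median of 0.09, endothelial markers of -0.04, neutrophil markers of 0.00, erythroid markers of -0.17, dividing cell markers of 0.21 and hepatocyte markers of -0.09, and the summed levels of each of these lists overlapped between the genotypes. Of 5 pancreatic acinar markers, 2 had 0 counts in all libraries, and Cela1 made up most of their sum of 7.70 to 13.4 CPM. The 6 T and B cell markers had a median of 0.49, with 1 (Cd8a) higher at an unadjusted p under 0.05 by edgeR, against 5.45% of all genes. After adjustment edgeR called none and DESeq2 called Cd8a (adjusted p = 0.00342), against 1.42% of all genes called higher by DESeq2. The 8 cholangiocyte markers outside the members summed to between 35.9 and 63.9 CPM in Nnmt KO and between 49.8 and 69.5 CPM in control libraries, with a median log2 fold change of 0.13. Krt23 made up 33.6 of the 69.5 CPM in control library a, and the defining duct cell genes Cftr and Sctr were at most at 0.725 and 0.306 CPM in any library.

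Of the T cell genes, named here after their values were seen, Cd8a was at 0.717 to 1.21 CPM in Nnmt KO and 0.238 to 0.415 CPM in control libraries, without overlap, while Cd3e, which all T cells carry, overlapped at 0.237 to 1.18 and 0.265 to 1.01 CPM. Every Nnmt KO library was above every control library for 3.34% of all genes.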
